A study of Mus musculus with 12 samples.

Results

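The genes described here are the tissue inhibitors of metalloproteinases (TIMPs) and a set of matrix metalloproteinases (MMPs) in mouse skeletal muscle with and without PTRF. The 10 members, Timp1, Timp2, Timp3, Timp4, Mmp2, Mmp3, Mmp9, Mmp14, Mmp15 and Mmp19, were taken by exact match of the gene symbol among 21936 genes listed in the deposited tables, and each matched 1 entry. MMPs are zinc-dependent endopeptidases that cut collagens, fibronectin and other components of the extracellular matrix; most are secreted as inactive precursors, and some are held at the cell surface by a transmembrane segment. TIMPs are small secreted proteins that bind the active site of MMPs and block it, so the level of matrix breakdown depends on the proteases, their activation and their inhibitors together. In muscle these genes are known for their part in repair after injury and in fibrosis, and fibroblasts and macrophages are major sources of several of them.

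The compared groups were PTRF knockout muscle, labelled as muscular dystrophy, and wild-type muscle, labelled as normal, both from C57BL/6N mice aged 3 months. PTRF, now named cavin 1, is the coat protein of caveolae, the small pits of the plasma membrane, and is encoded by Cavin1; the labels give no allele, promoter, sex or animal number. The 12 labelled samples are 3 per genotype for soleus and for quadriceps, but each quadriceps sample held the same value for every gene above 0 as the soleus sample of the same genotype and number (largest difference 0 TPM), so the soleus-labelled values were used and counted once, as 3 knockout and 3 wild-type libraries. The labels therefore do not settle which muscle these 6 libraries came from. Among myosin heavy chain genes, Myh7 stood at 2196 to 3291 TPM in knockout libraries and 1702 to 2703 TPM in wild-type libraries. Myh4 stood at 238, 580 and 346 TPM in knockout libraries and at 6.43, 194 and 4.21 TPM in wild-type libraries. Myh1 stood at 1012 to 1623 TPM in knockout libraries and at 546, 1369 and 548 TPM in wild-type libraries. For both genes wild-type library 2 was the highest of its group. Myh2 stood at 1203 to 1838 TPM in knockout libraries and 1209 to 1610 TPM in wild-type libraries. The muscle of origin was not tested.

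Values are taken as TPM, a length-normalised share of the transcripts of a library, so levels can be compared between genes, while the read depth behind them is unknown. Totals ran from 843194 to 872482 TPM, and mitochondrial transcripts took 39.0 to 45.7% of the TPM in knockout libraries and 43.0 to 52.3% in wild-type libraries. Cavin1, which checks the labels, stood at 0.284, 0.0905 and 0.0254 TPM in knockout libraries and at 45.2, 40.0 and 42.2 TPM in wild-type libraries. The 9 myofibre markers summed to 41381 to 49677 TPM in knockout libraries and 38067 to 41941 TPM in wild-type libraries, so all 6 libraries carried skeletal muscle RNA. No label ties a numbered sample to an animal of its own, so the p-values reflect the spread among these 6 libraries, part or all of which may be technical.

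Of the 10 members, 6 were higher in knockout muscle, none was lower, 2 did not pass the test and 2 were too low to be tested. Timp1, Timp2, Timp3, Mmp2, Mmp14 and Mmp19 were the genes that rose, and Timp4 and Mmp15 did not pass. Genes were tested on log2(TPM + 1) with limma where they reached 1 TPM in at least 3 libraries, at a Benjamini-Hochberg adjusted p of 0.05 over 11056 genes. Of all tested genes, 39.2% were called in either direction, 36.3% higher and 2.92% lower, so a rise was common in these libraries and the count of 6 is to be read against that share. Timp1 and Mmp19 were below 1 TPM in every wild-type library and entered the test only through the knockout libraries, so being higher was a condition of their being tested. In bulk tissue, more cells that express a gene and more of its RNA per cell cannot be told apart.

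Among the inhibitors, Timp1 (ENSMUSG00000001131, chromosome X, 20870166 to 20874735 on the plus strand, GRCm38), a secreted TIMP that is induced by cytokines and tissue injury, had the largest change of any member. Timp1 stood at 9.47, 8.24 and 8.22 TPM in knockout libraries 1, 2 and 3, against 0.863, 0.762 and 0.492 TPM in wild-type libraries 1, 2 and 3. Every knockout library was above every wild-type library, and the knockout values lay close to each other. The knockout mean of 8.64 ± 0.715 TPM was 12.2 times the wild-type mean of 0.706 ± 0.192 TPM (SD, n = 3 each). The log2 fold change on the TPM + 1 scale was 2.50 (SE 0.14; adjusted p = 1.26e-06, limma). On that scale the change of a gene at such a low wild-type level is understated.

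Timp2 (ENSMUSG00000017466, chromosome 11, 118301069 to 118355740 on the minus strand), which besides inhibiting MMPs forms a surface complex with the Mmp14 and Mmp2 proteins through which the Mmp2 precursor is activated, also rose. It stood at 25.2, 29.7 and 28.5 TPM in knockout libraries and at 10.8, 11.3 and 11.6 TPM in wild-type libraries. The groups were far apart and the wild-type libraries nearly equal. The mean was 27.8 ± 2.38 TPM in knockout and 11.2 ± 0.425 TPM in wild type (SD, n = 3 each), and log2(TPM + 1) was higher by 1.23 (SE 0.14; adjusted p = 6.15e-05, limma).

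Timp3 (ENSMUSG00000020044, chromosome 10, 86300372 to 86349506 on the plus strand), which stays bound to the extracellular matrix and also inhibits ADAM proteases, rose less. Its levels were 40.9, 29.9 and 41.0 TPM in knockout libraries and 17.5, 26.4 and 25.0 TPM in wild-type libraries. The groups did not overlap, but knockout library 2 lay close to wild-type library 2. The mean was 37.3 ± 6.40 TPM in knockout and 23.0 ± 4.77 TPM in wild type (SD, n = 3 each), and the log2 fold change was 0.68 (SE 0.19; adjusted p = 0.0152, limma). This call was lost without knockout library 1 (adjusted p = 0.0535), without knockout library 3 (adjusted p = 0.0537), without wild-type library 1 (adjusted p = 0.0721), with no filter (adjusted p = 0.0526) and on the trimmed-mean and quantile scales (limma).

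Timp4 (ENSMUSG00000030317, chromosome 6, 115241892 to 115252205 on the minus strand), an inhibitor with a narrow tissue range that includes heart, muscle and fat, was the inhibitor that did not rise. It stood at 12.9, 4.03 and 9.85 TPM in knockout libraries and at 8.95, 16.1 and 18.7 TPM in wild-type libraries. The groups overlapped, because wild-type library 1 lay below knockout libraries 1 and 3, and knockout library 2 held the lowest value of all. The mean was 8.91 ± 4.49 TPM in knockout and 14.6 ± 5.07 TPM in wild type (SD, n = 3 each), and the log2 fold change was -0.72 (SE 0.34; adjusted p = 0.109, limma). Without knockout library 1 the fall passed at a log2 fold change of -1.02 (limma, adjusted p = 0.0493) and without wild-type library 1 at -1.01 (limma, adjusted p = 0.0284), while without knockout library 2 the log2 fold change was -0.29 (limma, adjusted p = 0.345). With the filter met in 2 libraries, a setting added after seeing the data, Timp4 did not pass without knockout library 1 (limma, adjusted p = 0.052).

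The mouse Timp1, Timp3 and Timp4 genes each lie inside a synapsin gene that runs on the opposite strand, and the annotation (GENCODE release 21) placed them within Syn1, Syn3 and Syn2. Synapsins are proteins of synaptic vesicles. Syn1 stood at no more than 0.0836 TPM and Syn3 at no more than 0.29 TPM in any library, both below the TIMP gene they surround. Syn2 stood at 1.36 to 3.07 TPM, closer to the 4.03 TPM of Timp4 in knockout library 2.

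**Figure D1:**
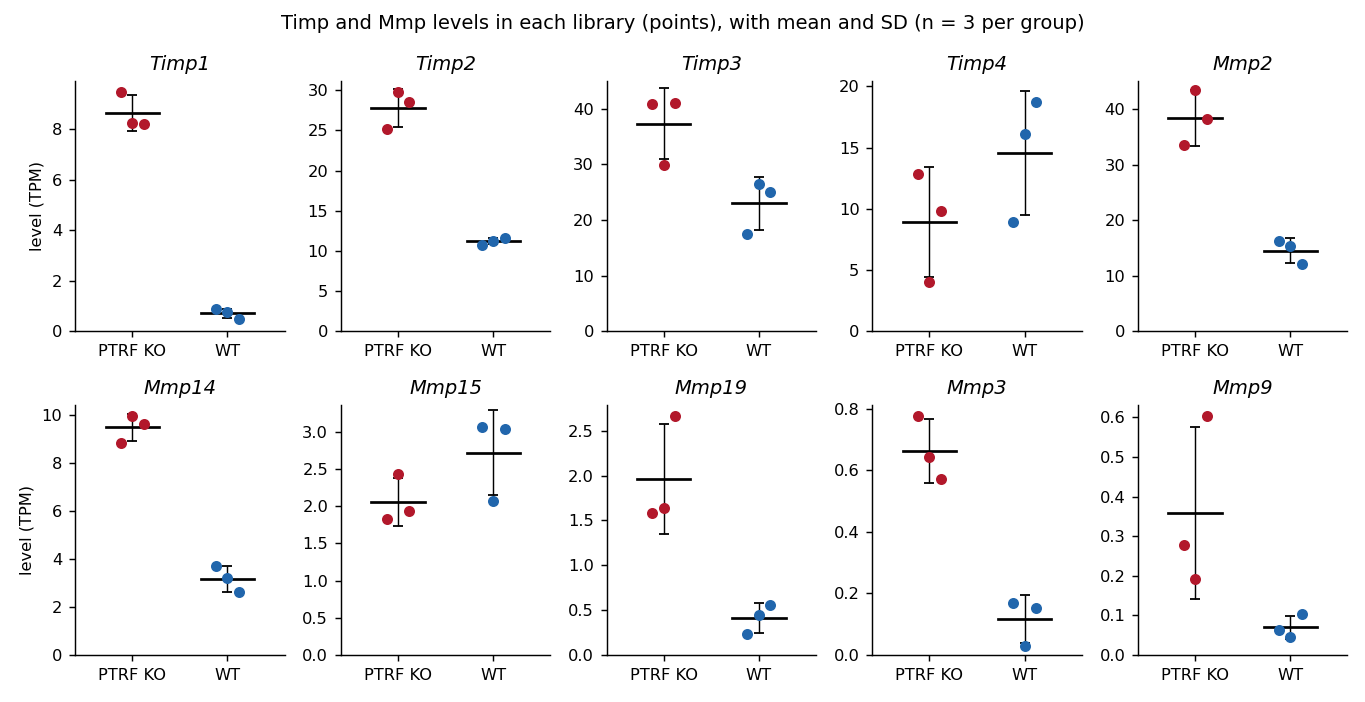
Level of each member in TPM (vertical axes, each from 0) in the 3 PTRF knockout libraries (red, left) and the 3 wild-type libraries (blue, right), with the mean as a line and the SD as a bar. Timp1 lies between 8.22 and 9.47 TPM in knockout libraries and below 1 TPM in wild-type libraries, while the groups overlap for Timp4 and Mmp15.

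The proteases were led by Mmp2 (ENSMUSG00000031740, chromosome 8, 92827291 to 92853420 on the plus strand), gelatinase A, a secreted enzyme that cuts denatured collagen and basement membrane collagen IV. Mmp2 stood at 33.5, 43.5 and 38.2 TPM in knockout libraries and at 16.2, 15.3 and 12.1 TPM in wild-type libraries. The groups did not overlap, and the lowest knockout library was above the highest wild-type one by more than the range within either group. Its mean was 38.4 ± 5.01 TPM in knockout and 14.5 ± 2.19 TPM in wild type (SD, n = 3 each), and its log2 fold change was 1.34 (SE 0.16; adjusted p = 9.98e-05, limma).

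The membrane-anchored pair moved unequally. Mmp14 (ENSMUSG00000000957, chromosome 14, 54431612 to 54445364 on the plus strand), a collagenase of the cell surface that activates the Mmp2 precursor, stood at 8.84, 9.95 and 9.63 TPM in knockout libraries and at 3.70, 3.19 and 2.63 TPM in wild-type libraries. All knockout libraries were higher, and the log2 fold change was 1.33 (SE 0.15; adjusted p = 5.63e-05, limma). Mmp15 (ENSMUSG00000031790, chromosome 8, 95352268 to 95375080 on the plus strand), another transmembrane MMP, stood at 1.82, 2.43 and 1.93 TPM in knockout libraries and at 3.06, 2.07 and 3.04 TPM in wild-type libraries. These groups overlapped through knockout library 2 and wild-type library 2, and the log2 fold change was -0.27 (SE 0.16; adjusted p = 0.17, limma). Within each library, where the scale of the library cancels, the ratio of Mmp14 to Mmp15 was 4.84, 4.10 and 4.98 in knockout and 1.21, 1.54 and 0.866 in wild type. That ratio was higher in all knockout libraries, which shows an unequal change of the pair and not which of them moved.

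Mmp19 (ENSMUSG00000025355, chromosome 10, 128790910 to 128800824 on the plus strand), a secreted MMP that cuts basement membrane proteins, stood at 1.59, 1.63 and 2.67 TPM in knockout libraries and at 0.230, 0.450 and 0.561 TPM in wild-type libraries. All knockout libraries were higher, by 1.06 on the log2 scale (SE 0.16; adjusted p = 0.00056, limma). Mmp19 is overlapped on the opposite strand by Tmem198b, at 0.952 to 2.94 TPM, and whether the counting used the strand is not given in the sources used here.

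Mmp3 and Mmp9 never reached 1 TPM. Mmp3, stromelysin 1 (ENSMUSG00000043613, chromosome 9, 7445822 to 7455975 on the plus strand), which cuts proteoglycans and activates other MMP precursors, stood at 0.776, 0.642 and 0.572 TPM in knockout libraries and at 0.169, 0.0283 and 0.153 TPM in wild-type libraries. Mmp9, gelatinase B (ENSMUSG00000017737, chromosome 2, 164940780 to 164955850 on the plus strand), which is carried by neutrophils and macrophages, stood at 0.278, 0.193 and 0.604 TPM in knockout libraries and at 0.0619, 0.0462 and 0.103 TPM in wild-type libraries. Neither gene's groups overlapped, but with unknown depth the reads behind such levels cannot be counted. With no filter, where 21.4% of 18254 genes were called, 19.8% higher and 1.58% lower, Mmp3 passed as higher (log2 fold change 0.58, limma, adjusted p = 0.00421) and Mmp9 did not pass (0.33, limma, adjusted p = 0.0688).

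Promoters of 7 of the 10 members were found among RefSeq's promoters for GRCm38.p6, each running from 250 bases before to 50 bases after the start site. The promoters of Timp1, Timp2 and Mmp14, which rose, of Timp4, which did not, and of Mmp3, which holds the only AP-1 match, are shown 5′ to 3′ on the gene's strand. Capitals mark the letters of the motifs found on either strand. They lie at chrX:20869916-20870215 (Timp1, plus), chr11:118355362-118355661 (Timp2, minus), chr14:54431348-54431647 (Mmp14, plus), chr6:115252156-115252455 (Timp4, minus) and chr9:7445572-7445871 (Mmp3, plus).
Timp1: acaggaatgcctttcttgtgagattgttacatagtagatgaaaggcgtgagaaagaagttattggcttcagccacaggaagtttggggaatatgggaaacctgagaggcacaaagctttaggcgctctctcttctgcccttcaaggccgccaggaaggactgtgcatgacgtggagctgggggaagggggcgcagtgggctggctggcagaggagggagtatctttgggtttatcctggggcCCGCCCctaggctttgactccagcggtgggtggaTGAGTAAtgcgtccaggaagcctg
Timp2: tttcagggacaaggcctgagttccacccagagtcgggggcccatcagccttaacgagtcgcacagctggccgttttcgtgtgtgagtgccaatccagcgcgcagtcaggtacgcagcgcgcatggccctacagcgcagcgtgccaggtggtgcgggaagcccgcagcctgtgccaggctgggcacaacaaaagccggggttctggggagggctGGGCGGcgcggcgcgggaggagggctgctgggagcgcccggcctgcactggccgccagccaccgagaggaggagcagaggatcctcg
Mmp14: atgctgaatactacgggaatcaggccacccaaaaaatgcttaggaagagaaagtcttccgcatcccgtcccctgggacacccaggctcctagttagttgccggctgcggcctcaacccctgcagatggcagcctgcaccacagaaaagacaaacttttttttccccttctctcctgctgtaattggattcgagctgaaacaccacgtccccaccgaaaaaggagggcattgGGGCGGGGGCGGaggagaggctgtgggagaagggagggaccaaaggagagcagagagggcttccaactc
Timp4: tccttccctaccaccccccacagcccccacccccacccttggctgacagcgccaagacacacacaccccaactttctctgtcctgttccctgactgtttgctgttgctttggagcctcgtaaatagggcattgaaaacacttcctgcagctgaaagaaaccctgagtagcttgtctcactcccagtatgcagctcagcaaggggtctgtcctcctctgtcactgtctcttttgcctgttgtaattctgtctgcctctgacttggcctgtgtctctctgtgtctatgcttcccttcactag
Mmp3: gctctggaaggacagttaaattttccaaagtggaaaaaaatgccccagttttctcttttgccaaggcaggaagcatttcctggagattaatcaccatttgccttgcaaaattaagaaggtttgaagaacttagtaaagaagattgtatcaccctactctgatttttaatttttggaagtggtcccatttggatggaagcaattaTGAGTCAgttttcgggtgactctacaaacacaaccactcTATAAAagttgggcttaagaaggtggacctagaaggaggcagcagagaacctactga

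The motifs searched were TGANTCA for AP-1, TTCNNNGAA for STAT factors, GGGCGG for Sp1 and TATAAA for the TATA box, on both strands. AP-1 is the Fos and Jun family of transcription factors, through which cytokines are known to induce several MMP genes. TGANTCA was found in the Mmp3 window alone, as TGAGTCA at position -46 relative to the start site, and in 7.81% of 32851 RefSeq windows of this length. The Mmp3 window also held TATAAA at position -7, present in 13.6% of windows. No member window held TTCNNNGAA, present in 8.30% of windows.

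GGGCGG was found in the windows of Timp1, Timp2, Timp3, Mmp14 and Mmp15, with 2 matches each in Timp3 and Mmp14, and in 35.7% of all windows. The Timp4 window held none of these motifs and had 2 CpG pairs and a GC content of 53.3%. The Timp2 and Timp3 windows held 25 and 24 CpG pairs, with 68.7% and 67% GC. The windows of Timp1 and Mmp14, which also rose, held 8 and 10, with 55% and 56% GC. The window of Mmp15, which did not pass, held 22, with 66% GC, and the Mmp3 window 1, with 40%. The letters TGAGTAA, which were searched after the sequences had been seen because they are known as an AP-1 element of the mouse Timp1 promoter, stood at position 27 of Timp1, in no other member window and in 2.68% of all windows. These matches describe the windows, and do not show binding.

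Counted without a model, 8 of the 10 members were higher in all 3 knockout libraries than in all 3 wild-type libraries, and the groups overlapped for the other two. Among the 8 members tested the count was 6, where the groups were apart for 53.6% of all tested genes, 48.7% upward and 4.83% downward. An exact two-sided permutation test of each member's 6 values gave p = 0.1 for each of the 8, the smallest that 3 against 3 allows, p = 0.3 for Timp4 and p = 0.2 for Mmp15.

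The order of levels differed between the groups. In knockout libraries Mmp2 and Timp3 had the highest means and overlapped each other, Timp2 came next at 27.8 TPM without overlap, and Mmp14, Timp4 and Timp1 followed with overlapping values. In wild-type libraries Timp3 came first at 23.0 TPM and its values overlapped those of Timp4, which ran from 8.95 to 18.7 TPM and also spanned the values of Mmp2 and Timp2. Timp2 lay below Mmp2 without overlap, and Mmp14 below Timp2. Mmp14 overlapped Mmp15 in wild-type libraries. Timp1 and Mmp19 overlapped near the bottom of the wild-type order, and Mmp3 and Mmp9 were last in both groups.

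The design bears on the balance between proteases and inhibitors, which was described by sums within each library. The 4 Timp members summed to 88.4, 71.9 and 87.6 TPM in knockout libraries and to 38.1, 54.5 and 55.9 TPM in wild-type libraries, and the knockout mean was 1.67 times the wild-type mean. The 6 Mmp members summed to 46.8, 58.4 and 53.6 TPM in knockout libraries and to 23.4, 21.1 and 18.5 TPM in wild-type libraries, a ratio of means of 2.52. Both sums were thus higher in every knockout library.

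The ratio of summed Timp to summed Mmp TPM was 1.89, 1.23 and 1.64 in knockout libraries and 1.63, 2.58 and 3.01 in wild-type libraries. Wild-type library 1 lay below knockout libraries 1 and 3, so the groups overlapped, and the means of 1.59 ± 0.331 in knockout and 2.41 ± 0.709 in wild type (SD, n = 3 each) were not separated beyond the spread of the libraries. Counting all 22 Mmp genes in the tables gave 1.35 ± 0.246 in knockout and 2.07 ± 0.672 in wild type, and leaving out Timp4 gave 1.41 ± 0.228 in knockout and 1.69 ± 0.395 in wild type. In no library did the summed Mmp TPM exceed the summed Timp TPM over the 10 members. No test is given for these sums, since the members were chosen with earlier results known, and RNA levels do not give protease activity.

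The make-up of the summed inhibitors differed as well. Timp1 took 10.7, 11.5 and 9.38% of the summed Timp TPM in knockout libraries and 2.26, 1.40 and 0.88% in wild-type libraries. Timp4 took 14.6, 5.60 and 11.2% in knockout libraries and 23.5, 29.5 and 33.5% in wild-type libraries. The groups did not overlap for either gene. Timp2 took 28.5, 41.4 and 32.6% in knockout libraries and 28.3, 20.7 and 20.8% in wild-type libraries, also without overlap, although knockout library 1 and wild-type library 1 were nearly equal. Timp3 overlapped, taking 41.6 to 46.8% in knockout libraries and 44.8 to 48.4% in wild-type libraries. The ratio of Timp1 to Timp4 was 0.736, 2.05 and 0.834 in knockout libraries and 0.0965, 0.0474 and 0.0262 in wild-type libraries, higher in every knockout library.

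Among the proteases Mmp2 took most of the sum in every library, 71.2 to 74.5% in knockout and 65.0 to 72.6% in wild type. Mmp15 took 3.90, 4.16 and 3.61% of the summed Mmp TPM in knockout libraries and 13.1, 9.80 and 16.4% in wild-type libraries, with no overlap. Among the 3 members of the Mmp2 activation complex, the ratio of Timp2 to Mmp2 was 0.751, 0.684 and 0.747 in knockout libraries and 0.665, 0.735 and 0.964 in wild-type libraries, and that of Timp2 to Mmp14 was 2.85, 2.99 and 2.96 in knockout libraries and 2.92, 3.53 and 4.42 in wild-type libraries. Both ratios overlapped between the groups. The ratio of Mmp2 to Mmp14 was lower in all knockout libraries, at 3.79, 4.37 and 3.96 in knockout and 4.39, 4.81 and 4.58 in wild type, with knockout library 2 just below wild-type library 1. The ratio of Timp3 to Mmp14 did not overlap, at 4.63, 3.00 and 4.26 in knockout libraries and 4.74, 8.26 and 9.51 in wild-type libraries, although knockout library 1 and wild-type library 1 were close.

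**Figure D2:**
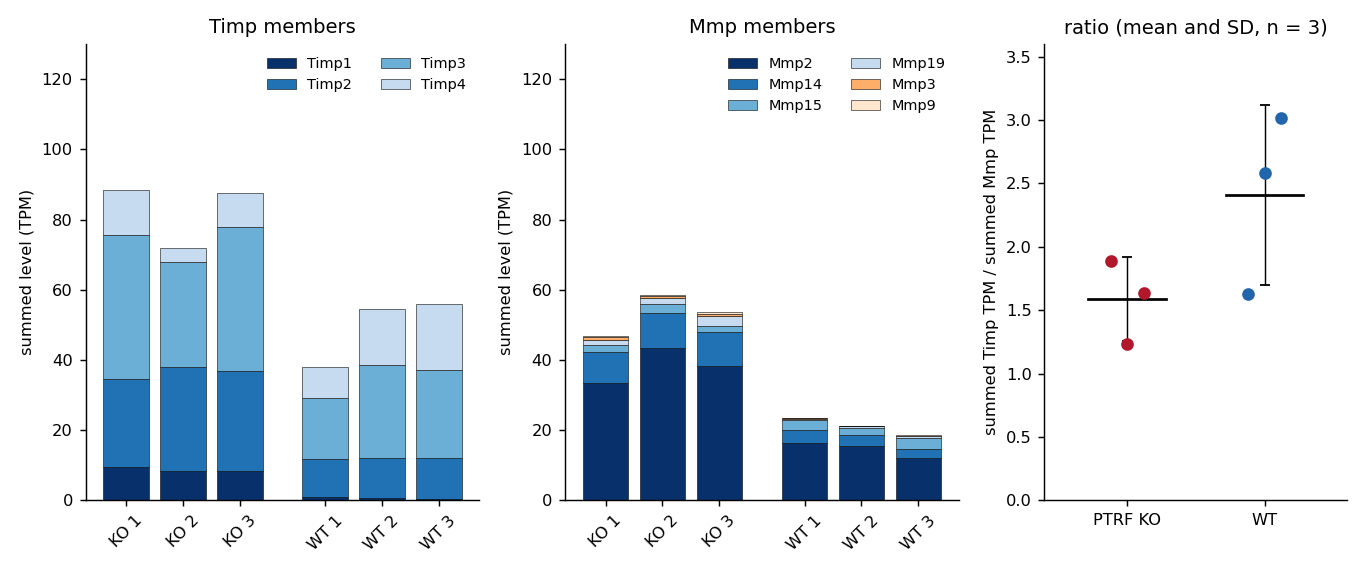
Summed TPM of the Timp members (left) and of the Mmp members (middle) in each library, stacked by gene, and the ratio of the sums (right; points are libraries, line and bar are mean and SD, n = 3 per group). Both sums are higher in all knockout libraries, and the ratios overlap, with wild-type library 1 at 1.63 among the knockout values of 1.23 to 1.89.

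TPM is a share, and the scale of the libraries bears on every change given above. On the deposited scale the median log2 fold change of all tested genes was 0.33. After trimmed-mean rescaling of the libraries, which brought that median to 0.02, 27.5% of 10993 genes were called, 15.6% higher and 11.9% lower, and of the members 5 were higher and 2 lower. Timp1 (log2 fold change 2.26, adjusted p = 6.53e-05), Timp2 (0.89, adjusted p = 0.00223), Mmp2 (1.00, adjusted p = 0.00755), Mmp14 (1.03, adjusted p = 0.0028) and Mmp19 (0.89, adjusted p = 0.0066) kept their call in the limma fit. Timp3 lost its call on that scale (0.33, limma, adjusted p = 0.167).

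Timp4 and Mmp15 passed as lower on the trimmed-mean scale. Timp4 had a log2 fold change of -1.05 (limma, adjusted p = 0.049) and Mmp15 of -0.52 (limma, adjusted p = 0.0374). After quantile normalization, which called 25.5% of genes, 12.4% higher and 13.1% lower, Mmp15 passed as lower (-0.69, limma, adjusted p = 0.0117), Timp4 did not (-1.09, limma, adjusted p = 0.0518), and neither did Timp3 (0.39, limma, adjusted p = 0.113). On a scale over nuclear genes alone, which called 30.8% of genes, 23.9% higher and 6.89% lower, the 6 members called on the deposited scale passed, and Timp4 (-0.90, limma, adjusted p = 0.0659) and Mmp15 (-0.41, limma, adjusted p = 0.0777) did not. No member changed direction on any of these scales.

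**Figure D3:**
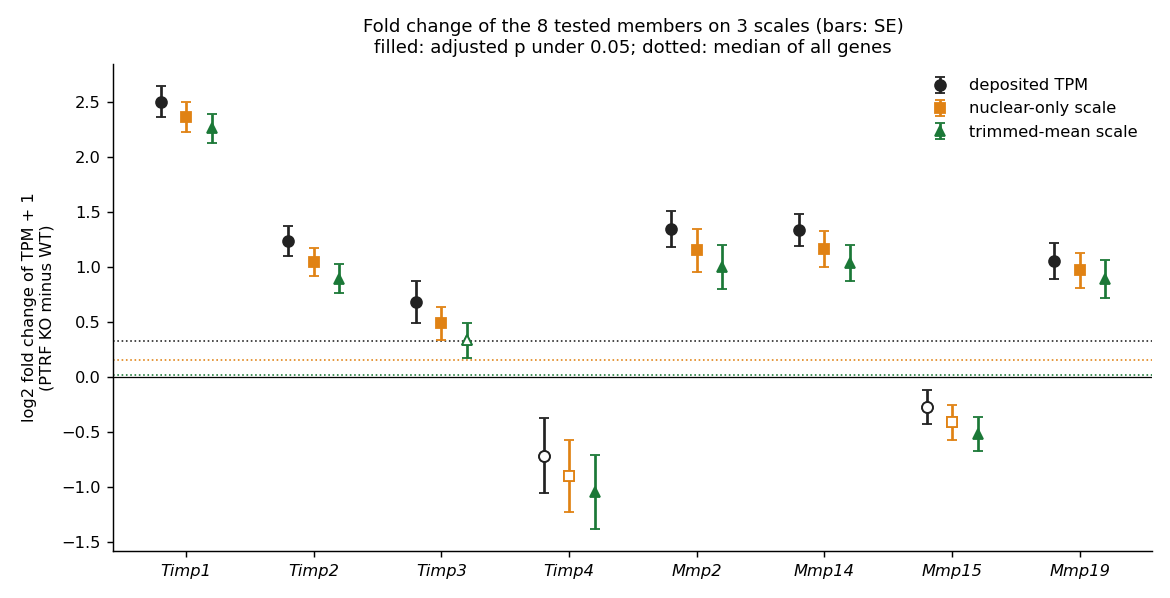
Log2 fold change of TPM + 1, PTRF knockout minus wild type, with its SE, for the 8 tested members on the deposited, nuclear-only and trimmed-mean scales; filled symbols passed an adjusted p of 0.05 (limma), and dotted lines mark the median of all genes on each scale. Timp1 stands at 2.26 to 2.50 on the 3 scales, and Timp4 and Mmp15 lie below 0 on each.

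The other genes of matrix proteolysis were counted from lists chosen with earlier results of these data known. Every list count stands beside 36.3% of all tested genes higher and 2.92% lower, or 15.6% and 11.9% after trimmed-mean rescaling. Over all 10 members the median log2 fold change of the 8 tested was 1.14, beside 0.33 for all tested genes. The deposited data list 16 other Mmp genes, of which Mmp11, Mmp23 and Mmp28 were tested and rose, Mmp23 and Mmp28 being tested through the knockout libraries alone. Mmp11, stromelysin 3, averaged 4.47 TPM in knockout and 2.14 TPM in wild type, with a log2 fold change of 0.86 (limma, adjusted p = 0.00996), and did not pass on the trimmed-mean scale (limma, adjusted p = 0.121). Mmp1b, Mmp7, Mmp10 and Mmp21 were at 0 in every library.

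Of 9 tested genes of the plasminogen system, the serine protease cascade that also activates MMP precursors, 7 were higher and none lower, with a median of 0.80 (6 higher after trimmed-mean rescaling). Plaur, the receptor of urokinase, averaged 5.69 TPM in knockout and 0.58 TPM in wild type (log2 fold change 2.07, limma, adjusted p = 4.28e-06), and it was tested through the knockout libraries alone. Anxa2 and S100a10, which form a plasminogen-binding complex at the cell surface, rose by 2.05 and 2.13, and Plau, urokinase itself, by 0.79 on the log2 scale.

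Of 9 tested genes among other inhibitors, clearance receptors and activators of MMPs, 5 were higher and 1 lower (3 and 2 after trimmed-mean rescaling), with a median of 0.72. Lrp1, an endocytic receptor that clears MMPs and TIMPs, averaged 32.1 TPM in knockout and 13.6 TPM in wild type (log2 fold change 1.17), Cd44, a surface receptor that docks MMPs, rose by 1.32, Pcolce, an enhancer of procollagen processing, by 1.03 and Sparc, a collagen-binding matricellular protein, by 0.95 on the log2 scale. Sparc did not pass on the trimmed-mean scale (limma, adjusted p = 0.0573). Cldn1, a tight junction protein named because it was the only lower gene of the list, averaged 0.817 TPM in knockout and 1.36 TPM in wild type (log2 fold change -0.38, limma, adjusted p = 0.0447). Its call was lost in 11 of 18 alternative settings, not counting the minimum fold change. Of 13 tested ADAM and ADAMTS proteases 9 were higher and none lower (6 after trimmed-mean rescaling), with a median of 0.54. Adam15, Adamts8, Adamts7 and Adamts2, the last a procollagen peptidase, had log2 fold changes of 1.25, 1.38, 1.08 and 0.82. Adamts7 was below 1 TPM in every wild-type library and was tested through the knockout libraries alone.

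Of 20 matrix proteins that MMPs can cut, 19 were higher (17 on the trimmed-mean scale) and none lower, and the list median was 1.16 on the log2 scale. Of the 19, Vcan, the proteoglycan versican, was tested through the knockout libraries alone. Col3a1, a fibrillar collagen, averaged 103 TPM in knockout and 21.1 TPM in wild type (log2 fold change 2.17), and Bgn, the proteoglycan biglycan, 74.1 TPM in knockout and 20.7 TPM in wild type (1.81). Col5a2 and Col14a1 rose by 1.44 and 1.46. Of 15 tested cytokines and transcription factors known to regulate Mmp and Timp genes, 10 were higher and none lower (6 after trimmed-mean rescaling), with a median of 0.78. Another 9 genes of that list missed the filter, among them the cytokines Il1a, Il1b, Tnf, Il6, Osm and Lif. Of the cytokines tested, Tgfb1 and Tgfb2 passed on the deposited scale, and Tgfb3 and Spp1 did not. Tgfb1, Stat3, Junb and Runx1 had log2 fold changes of 1.51, 1.31, 1.34 and 1.07, and Runx1 was tested through the knockout libraries alone.

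**Figure D4:**
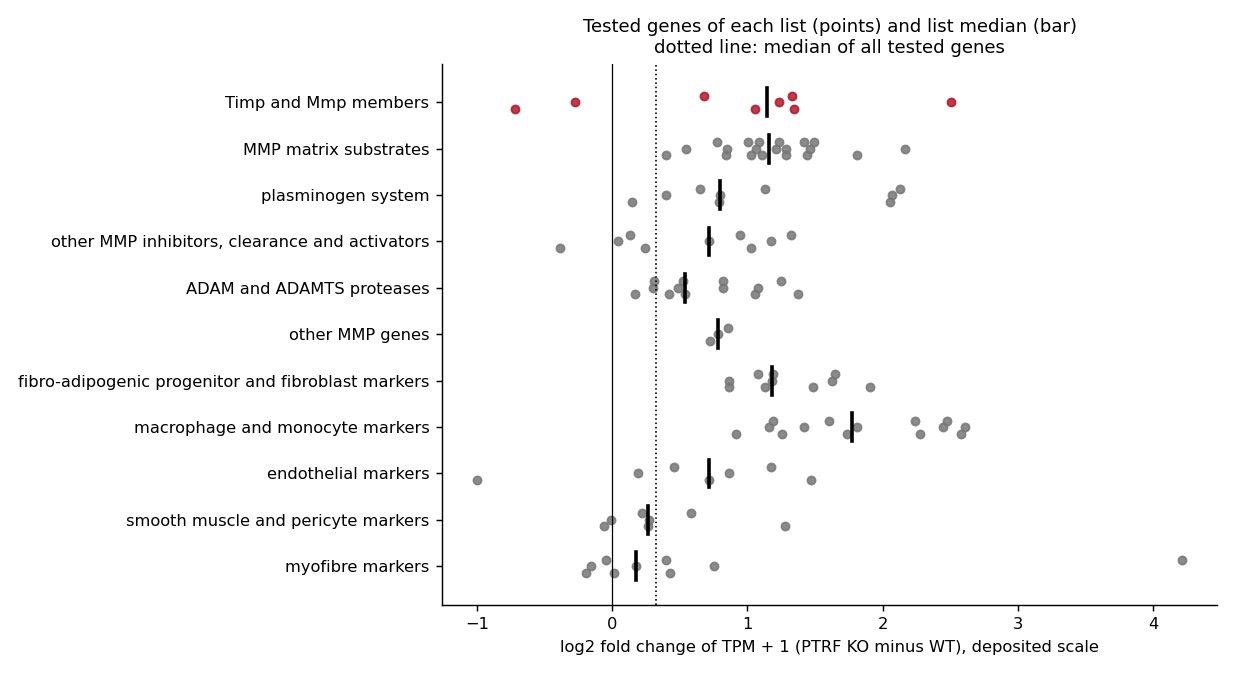
Log2 fold change of TPM + 1 on the deposited scale, PTRF knockout minus wild type, for the tested genes of each list shown (points) with the list median (bar). The dotted line is the median of all tested genes, 0.33. Not shown are the cytokine and transcription factor list and the neutrophil, mast cell, satellite cell, tendon, Schwann cell and adipocyte markers. The members (red, top) run from -0.72 for Timp4 to 2.50 for Timp1, around a median of 1.14, and the fibroblast and macrophage markers have medians of 1.18 and 1.77.

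Markers of cell types that are known to make MMPs and TIMPs differed between the groups in the same direction. The fibroblast list, which includes markers of fibro-adipogenic progenitors, had all 10 genes higher (9 on the trimmed-mean scale), and its summed level was 704 to 843 TPM in knockout libraries and 262 to 298 TPM in wild-type libraries, with none at 0. All 14 tested macrophage markers were higher (13 of 13 after trimmed-mean rescaling), summing over 15 genes to 211 to 263 TPM in knockout libraries and 42.7 to 50.6 TPM in wild-type libraries. Of these genes Dpp4 in the fibroblast list and Adgre1, Itgam and Ccr2 in the macrophage list were below 1 TPM in every wild-type library, so that being higher was a condition of their being tested. The part of both cell types in the changes of the members was not tested. Of 8 neutrophil markers Elane was at 0 in every library and 2 were tested, S100a8 and S100a9, both higher, S100a8 being tested through the knockout libraries alone. The list summed to 37.0, 4.26 and 7.59 TPM in knockout libraries and to 0.722, 2.43 and 0.791 TPM in wild-type libraries. In knockout library 1 most of that sum was S100a8 and S100a9, at 13.2 and 22.7 TPM. Mmp9, at 0.193 to 0.604 TPM in knockout libraries, was highest in knockout library 3. The part of neutrophils in the Mmp9 values was not tested.

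Relative to these markers the members differed among themselves. As a percentage of the summed fibroblast markers, Timp2 stood at 2.99, 4.22 and 3.49% in knockout libraries and 4.11, 4.05 and 3.91% in wild-type libraries, Mmp2 at 3.98, 6.18 and 4.67% in knockout libraries and 6.18, 5.51 and 4.05% in wild-type libraries, and Mmp14 at 1.05, 1.41 and 1.18% in knockout libraries and 1.41, 1.15 and 0.883% in wild-type libraries. For each of these 3 genes the groups overlapped. Timp1 stood at 1.12, 1.17 and 1.00% in knockout libraries and 0.329, 0.274 and 0.165% in wild-type libraries, higher in all knockout libraries. Timp3, Timp4 and Mmp15 were lower in all knockout libraries on this measure, Mmp3 was higher, and Mmp9 and Mmp19 overlapped. Timp3 stood at 4.85, 4.24 and 5.01% in knockout libraries and 6.68, 9.48 and 8.40% in wild-type libraries.

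The list sum is dominated by a few abundant genes, and against Pdgfra alone, the receptor that defines fibro-adipogenic progenitors, Timp1 was again higher in all knockout libraries, Timp3 was lower, and Timp2, Mmp2 and Mmp14 overlapped. The ratio of Timp1 to Pdgfra was 1.22, 1.24 and 1.07 in knockout libraries and 0.309, 0.246 and 0.167 in wild-type libraries. The ratio of Mmp2 to Pdgfra was 4.32, 6.56 and 4.99 in knockout libraries and 5.81, 4.95 and 4.09 in wild-type libraries. As a percentage of the summed macrophage markers, Timp1 was also higher in all knockout libraries, at 4.35, 3.90 and 3.13% in knockout and 2.01, 1.78 and 0.973% in wild type. Timp2, Timp3, Timp4, Mmp2, Mmp14 and Mmp15 were lower in all knockout libraries on that measure, and Mmp3, Mmp9 and Mmp19 overlapped. Mmp2, for one, stood at 15.4, 20.6 and 14.5% of the macrophage sum in knockout libraries and 37.8, 35.9 and 23.9% in wild-type libraries. These ratios were chosen after the levels had been seen, and they are descriptions with no test.

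**Figure D5:**
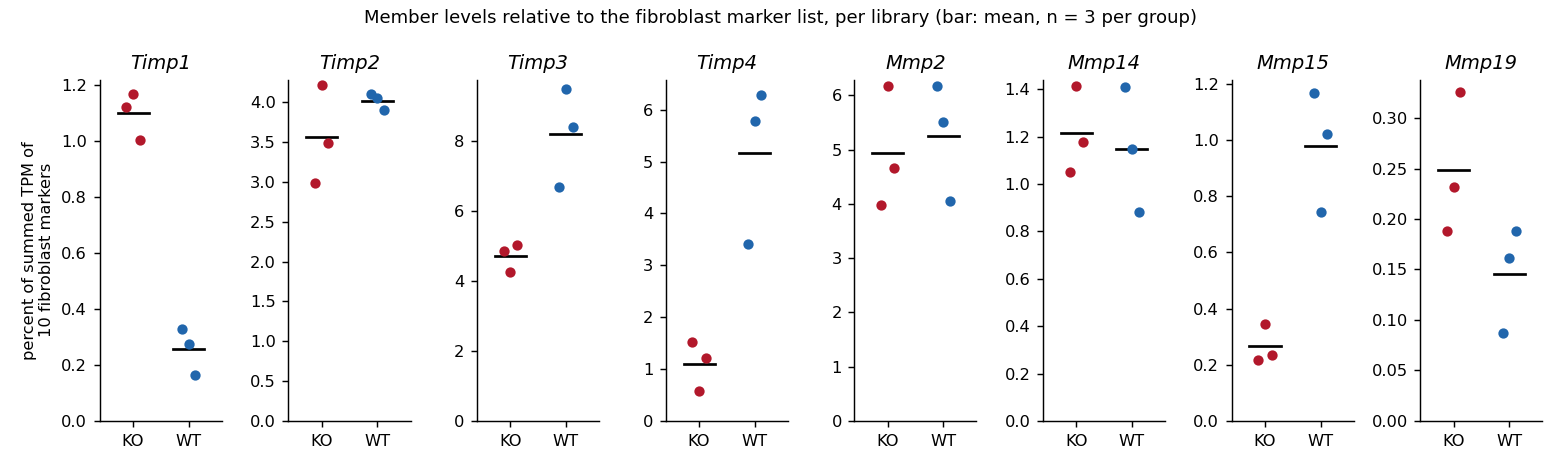
Level of 8 members as a percentage of the summed TPM of 10 fibroblast markers (vertical axes, each from 0), in PTRF knockout (red, left) and wild-type (blue, right) libraries, with the mean of 3 as a line. Timp1 lies at 1.00 to 1.17% in knockout and 0.165 to 0.329% in wild-type libraries, while Timp2, Mmp2 and Mmp14 overlap between the groups.

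Markers of the other cell types varied in direction and size. Their counts are to be read against the shares over all tested genes, 36.3% higher and 2.92% lower. On the trimmed-mean scale these shares were 15.6% and 11.9%. Of 7 endothelial markers 5 were higher and 1 lower (4 and 1 on the trimmed-mean scale), with sums of 616 to 692 TPM in knockout libraries and 461 to 585 TPM in wild-type libraries. Of 7 smooth muscle and pericyte markers 2 were higher (1 after trimmed-mean rescaling), with sums of 207 to 219 TPM in knockout libraries and 173 to 183 TPM in wild-type libraries. The median of that list was 0.27 on the log2 scale, and -0.09 after trimmed-mean rescaling. Of 6 mast cell markers 4 were tested and rose, Cpa3 through the knockout libraries alone. Their median was 1.22 on the log2 scale, and the list had sums of 9.79 to 15.7 TPM in knockout libraries and 2.16 to 4.76 TPM in wild-type libraries. Of 8 satellite cell and myoblast markers 4 were tested and 3 rose, namely Myod1, Myog and Myh3. Myf5 did not, at a mean of 1.19 TPM in both groups (log2 fold change -0.002). Pax7 was too low to be tested, at 0.558 TPM in knockout and 0.409 TPM in wild type. The list median was 1.49, with sums of 23.4 to 38.9 TPM in knockout libraries and 6.04 to 11.6 TPM in wild-type libraries. Of 5 tested tendon markers 2 were higher, Thbs4 and Scx, and 1 lower, Chad (log2 fold change -0.62). Tnmd (-0.53) and Comp (-0.14) did not pass. The median of the tendon list was -0.14 on the log2 scale, and -0.43 after trimmed-mean rescaling. Its sum was 121 to 174 TPM in knockout libraries and 34.3 to 53.1 TPM in wild-type libraries. Within that sum Thbs4 stood at 88.4 to 130 TPM in knockout libraries and 17.8 to 26.1 TPM in wild-type libraries. None of 3 tested Schwann cell markers passed (2 were lower on the trimmed-mean scale), with sums of 15.5 to 19.0 TPM in knockout libraries and 19.9 to 20.9 TPM in wild-type libraries. The part of these cell types in the members' values was not tested. None of 7 T and B cell markers reached the filter, and their sums were 0.643 to 1.18 TPM in knockout libraries and 0.549 to 0.672 TPM in wild-type libraries. None of 4 tested adipocyte markers passed. Their list summed to 84.5, 21.5 and 96.9 TPM in knockout libraries and to 26.8, 54.7 and 23.8 TPM in wild-type libraries, and knockout library 2, lowest of its group for this sum, was also lowest for Timp4. In the wild-type group library 2 was highest for the adipocyte sum and library 3 for Timp4. The part of fat cells in the Timp4 values was not tested.

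The genes whose profile over the 6 libraries lay nearest to that of Timp1 were found by Euclidean distance of log2(TPM + 1), after subtraction of the wild-type mean, among 11056 genes. The nearest was Vcam1, a cell adhesion molecule (distance 0.39), at 7.55, 6.35 and 7.29 TPM in knockout libraries and 0.704, 0.55 and 0.574 TPM in wild-type libraries. Capg, an actin-capping protein of macrophages, followed at 0.41, Ctss, a lysosomal protease of macrophages, at 0.42, Cilp, a matrix protein, at 0.49 and Plekho1 at 0.51. For Timp4, the member with the most negative log2 fold change, the nearest gene was Ppp1r3c, a glycogen-targeting subunit of protein phosphatase 1, at a distance of 0.70, with Aldh9a1, Mcrip2 and Abr at 0.79 to 0.85. The distance takes in the size of the difference between the groups, and with 6 libraries in 2 groups it is a description of likeness only.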

How the data were processed

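Each sample had 1 deposited table of Ensembl identifiers, symbols and values. The values the authors deposited are taken as TPM, normalised by them for transcript length and library total, because they have decimals and add up to 843194 to 872482 in a library; no header or label names the unit. RNA isolation with TRIzol and the NEBNext Ultra preparation are per the labels' protocols. The submitters' processing notes list STAR 2.5.3a and kallisto 0.43.0, as well as GRCm38 and mm10, but no step for any of them. TPM keeps no depth, so no counting interval is given. Genes missing from a table were set to 0.

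Samples were grouped by title. Soleus-labelled tables were analysed, and quadriceps-labelled ones served to check that they repeat them. A gene entered the test when 3 or more libraries held 1 TPM or more of it. Differences in log2(TPM + 1) were fitted over all 6 libraries by limma 3.58.1 (R 4.3.3), allowing an intensity trend, and the fit was checked on simulated data. Other settings were no trend, 3 other scales (quantile; trimmed mean over genes at 1 TPM or more in all 6 libraries, dropping 30% of ratios and 5% of levels; nuclear genes only), filters of none and 10 TPM, pseudocounts of 0.1 and 5, a block for the replicate number, a minimum absolute log2 change of 1, and leaving out single libraries. Positions are from GENCODE release 21 for mouse. Tables were made with pandas 2.3.3 under Python 3.11.15, and plots with matplotlib 3.10.9.

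The members and lists were chosen with earlier results of these data known. Named genes were the 10 members, Cavin1, up to 4 passing genes with the smallest adjusted p from each other pathway list, and the 5 nearest profiles of Timp1 and of the member with the most negative log2 fold change. Cldn1 was added after its values were seen. 1 of the nearest profiles is not reported here.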

Additional observations from a re-analysis of the deposited data

How the results depend on the processing

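Timp1, Timp2, Mmp2, Mmp14 and Mmp19 were called higher in every setting in which they were tested. Timp1 and Mmp19 missed the filter when a knockout library was left out, and both of them and Mmp14 missed that of 10 TPM. No member reversed. The number of members higher was 6, and 0 were lower. It was 3 higher and 1 lower with the filter of 10 TPM, which keeps 4 members. Members lower were 1 after quantile normalization and 2 after trimmed-mean rescaling. Leaving out single libraries gave 3 to 6 members passing, 3 to 6 higher and 0 to 1 lower. With the filter met in 2 libraries, a choice made after seeing the data, leaving out a knockout library gave 5 to 6 higher and 0 lower.

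Over all genes 4339 passed, 4016 higher and 323 lower. The counts were 2823 (1373 higher and 1450 lower, 48.6% higher) after quantile normalization and 1716 higher and 1311 lower (56.7% higher) after trimmed-mean rescaling. Over nuclear genes alone 2634 were up and 760 down (77.6% up). With the filter of 10 TPM, which keeps 4887 genes, 1839 passed (1616 higher). A log2 fold change of at least 1 left 912 (861 higher and 51 lower). Leaving out single libraries gave 2648 to 4458 genes, 2379 to 4150 higher and 219 to 346 lower. Leaving out wild-type library 2 together with knockout library 1, chosen after seeing the data, gave 1886 (1673 higher and 213 lower). Of the 69 tested genes of the other pathway lists 54 passed. With the filter of 10 TPM, which keeps 36 of these genes, 30 passed. With a log2 fold change of at least 1, 31 of the 69 passed. These alternatives for the lists were added after seeing the data. The Timp to Mmp ratio was 0.868 in knockout and 1.29 in wild type without Timp3. It was 1.06 in knockout and 1.87 in wild type without Timp2, and 1.41 in knockout and 1.69 in wild type without Timp4. Leaving out single libraries gave 1.43 to 1.76 in knockout and 2.10 to 2.80 in wild type.

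Same-numbered libraries of the 2 genotypes did not deviate together (correlations of 0.0283, -0.00808 and 0.0369 over genes). With the replicate block 4373 genes passed, and the same 6 members were higher. The cause of lost or gained calls was not tested.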
